A study of Chlamydomonas reinhardtii with 8 samples.

Results

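The genes described here are encoded in the chloroplast and the mitochondrion of the unicellular green alga Chlamydomonas reinhardtii, not in its nucleus. They were taken as the rows of the deposited count table whose ID begins with CreCp (74 chloroplast-encoded genes) or CreMt (8 mitochondrion-encoded genes), 82 of 17693 genes in all. RNA of vegetative cells grown in Tris-acetate-phosphate medium under light was sequenced in 8 libraries. Wild type (WT) and strains labelled dnmt1, a DNMT1 knockout, were sequenced in mating type plus (mt+, CC-5155 strains) and in mating type minus (mt-, CC-5325 strains), with 2 biological replicates in each of the 4 groups. Mating type and strain are thus the same contrast, and the labels give neither the lesion of the dnmt1 strains nor how many clones stand behind a group. The libraries were made from total RNA with a NEBNext kit, and whether messages with poly(A) tails were selected is not given in the sources used here.

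The chloroplast genome encodes core subunits of the photosystems, of the cytochrome b6f complex and of the ATP synthase, the large subunit of Rubisco, and parts of the chloroplast's own ribosome and RNA polymerase. The small mitochondrial genome of this alga encodes a few subunits of the respiratory chain. All other subunits of these complexes are encoded in the nucleus and imported. Organelle transcripts mostly lack the long poly(A) tails of nuclear messages, so a library selected for such tails would hold fewer of them; whether that bears on the shares here was not tested. In crosses, the chloroplast genome is passed on mainly by the mt+ parent and the mitochondrial genome mainly by the mt- parent. No table used here pairs the CreCp and CreMt IDs with gene names, so each gene is named by its ID and no role is given to single members.

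Library totals ran from 12204374 to 21115955 counts, of which 4528 to 11891 fell on chloroplast-encoded and 394 to 626 on mitochondrion-encoded genes. Of the 74 chloroplast-encoded genes 67 had enough counts to be tested, as had all 8 mitochondrion-encoded ones. The locus known as DMT1, Cre10.g461750 (a pairing from the nomenclature, not from the files), had 28.2 and 28.3 CPM (counts per a fixed library size, scaled by TMM) in WT mt+ against 16.0 and 13.2 in dnmt1 mt+, and 28.7 and 24.5 in WT mt- against 84.0 and 91.0 in dnmt1 mt-. It was thus lower than in WT, but not absent, in the libraries labelled dnmt1 mt+ and higher in those labelled dnmt1 mt-. Whether a working product was missing in either was not tested, so these counts do not settle the knockout label. "dnmt1" below is that label alone.

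The first question was whether the whole share of an organelle differed between WT and the libraries labelled dnmt1. In mt- the chloroplast share was lower in both libraries labelled dnmt1 than in both WT libraries, while the mitochondrial share was higher. Chloroplast-encoded genes took 0.0563% and 0.0659% of all gene counts in WT mt- replicates 1 and 2 (mean 0.0611% ± 0.00680, SD, n = 2), and 0.0395% and 0.0298% in the dnmt1 mt- replicates (0.0347% ± 0.00686). The Wilson 95% interval of each of these 4 shares was narrower than the gaps between the groups, from 0.0386% to 0.0405% in dnmt1 mt- replicate 1 and from 0.0553% to 0.0573% in WT mt- replicate 1, and covers counting error only. The difference of the mean log2 share was -0.83, a 0.564-fold level. With 2 libraries against 2, an exact permutation test cannot give a 2-sided p below 0.333, which is the value it gave here. A share cannot tell fewer chloroplast transcripts per cell from more nuclear ones.

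The mitochondrial share was 0.00221% and 0.00268% for the WT mt- replicates, against 0.00388% and 0.00278% for those of dnmt1 mt-. The groups did not overlap, but the lowest dnmt1 library stood close to the highest WT library, and the difference of the mean log2 share was 0.43 (2-sided exact permutation p = 0.333).

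In mt+ neither share separated the groups. The chloroplast share was 0.0660% and 0.0407% for WT against 0.0559% and 0.0436% for dnmt1, so both dnmt1 libraries lay between the WT replicates (difference of mean log2 share -0.07, 2-sided exact permutation p = 1). The mitochondrial share was 0.00371% and 0.00268% for WT against 0.00296% and 0.00288% for dnmt1, again within the WT range (-0.11, 2-sided exact permutation p = 1). Over both mating types, with labels permuted within each, the log2 difference of the chloroplast share was -0.45 (2-sided exact permutation p = 0.167, smallest possible 0.0556) and that of the mitochondrial share 0.16 (2-sided exact permutation p = 0.444).

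The replicates of a group also differed in their organelle shares. Between the WT mt+ replicates the 67 tested chloroplast-encoded genes had a median log2 ratio of 0.80, 65 of them higher in replicate 1, and all 8 mitochondrion-encoded genes were higher in replicate 1 too. Between the dnmt1 mt- replicates the medians were 0.45 in the chloroplast and 0.42 in the mitochondrion, between the WT mt- replicates -0.39 and -0.14, and between the dnmt1 mt+ replicates 0.38 and -0.12. The median over nuclear genes lay between -0.004 and 0.01 in the 4 groups. The median of 0.80 between the WT mt+ replicates was as large in size as the median of -0.74 between dnmt1 and WT in mt-.

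The number of chloroplast counts per mitochondrial count, a measure chosen after the data were seen, was 25.5 and 24.6 in WT mt- (25.1 ± 0.624, SD, n = 2), 10.2 and 10.7 in dnmt1 mt- (10.5 ± 0.381), 17.8 and 15.2 in WT mt+ (16.5 ± 1.82), and 18.9 and 15.2 in dnmt1 mt+ (SD 2.66). Both WT mt- libraries had the highest values of the 8 and both dnmt1 mt- libraries the lowest, with the 4 mt+ libraries between them. The log2 difference was -1.26 in mt- (-1.30 to -1.22 without any 1 of its libraries; 2-sided exact permutation p = 0.333, the smallest possible) and 0.04 in mt+ (2-sided exact permutation p = 1).

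**Figure D1:**
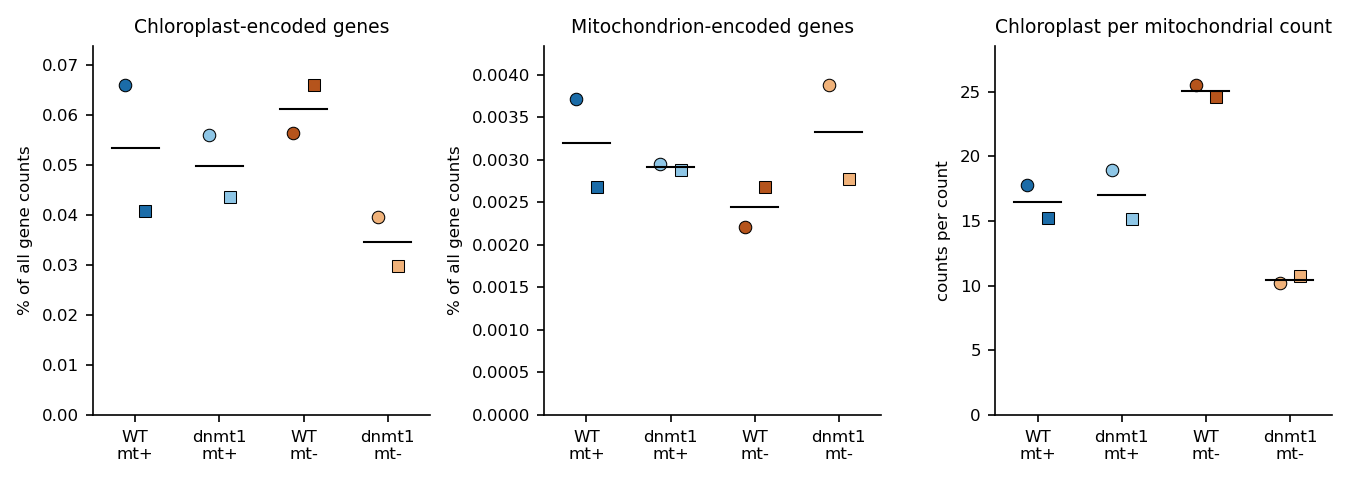
Share of all gene counts on chloroplast-encoded genes and on mitochondrion-encoded genes (%), and the ratio of both sums, in each of the 8 libraries. Circles are replicate 1, squares replicate 2, and bars the mean of 2 libraries. WT mt- (25.5 and 24.6) and dnmt1 mt- (10.2 and 10.7) hold the ends of the ratio, while the WT mt+ replicates stand apart in both shares.

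To separate a shift of the whole share from changes of single genes, each contrast was fitted in edgeR in 2 ways. In the first, counts were scaled to the whole library. In the second, a gene was scaled to the summed counts of its own organelle, so that a common shift cancels and the fold change is relative to the other members. Calls were made at p under 0.05 after Benjamini-Hochberg (BH) adjustment over the whole table of 15263 tested genes, and a log2 fold change is given ± a standard error derived from the test.

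In mt-, most chloroplast-encoded genes had lower values in dnmt1 than in WT against the whole library. Within the organelle, the numbers called each way were not far above the shares called over all tested genes. With whole-library scaling 26 of the 67 tested genes were lower and 0 higher, where 11.6% of all tested genes were called lower and 11.9% higher; the median log2 fold change was -0.74, against 0.01 over all tested genes, and 55 of 67 were negative. Relative to the organelle the median was -0.04, 10 genes were higher and 9 lower (12.1% and 11.6% of all tested genes). That scaling by its construction removes a shift of the summed counts, but does not set the median to 0. Of the 26, 9 stayed lower and 17 were no longer called. The 10 that were higher within the organelle were not called against the whole library. The spread of the fold changes among members hardly changed between the scalings (SD over genes 0.72 with both).

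In mt+, where the share did not separate the groups, the 2 scalings gave nearly the same calls. Against the whole library 3 genes were higher and 4 lower (9.27% and 8.83% of all tested genes), with a median log2 fold change of 0.14. Within the organelle 4 were higher and 6 lower (9.36% and 8.95% of all tested genes), and all 7 genes of the first fit were among them. The median was then 0.25. When the organelle was scaled by TMM among its members the median was 0.02, with 3 higher and 10 lower. The whole-library calls moved with the WT mt+ replicates, to 21 higher and 4 lower without replicate 1 and to 4 higher and 16 lower without replicate 2. Within the organelle the same omissions gave 8 higher and 6 lower, then 10 and 7.

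**Figure D2:**
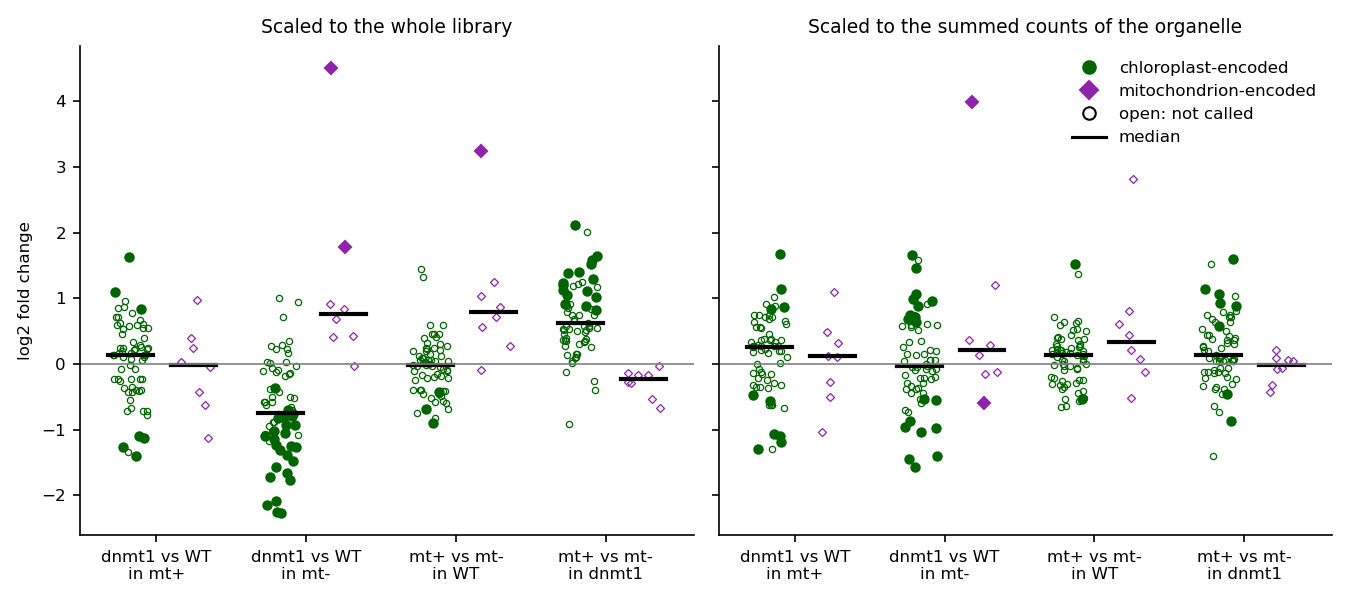
Log2 fold change of each tested chloroplast-encoded (circles) and mitochondrion-encoded gene (diamonds) in 4 comparisons, scaled to the whole library (left) or to the summed counts of the organelle (right). Filled symbols are called genes and black bars medians. The chloroplast median in mt- moves from -0.74 to -0.04 between the panels, while the genes stay spread around it.

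Within the chloroplast, 6 genes were called in the same direction in both mating types, 5 lower and 1 higher in the libraries labelled dnmt1. They were 60.0% of the 10 genes called in mt+ and 31.6% of the 19 called in mt-. In opposite directions 0 of 67 were called, near the background of 393 of all 15263 tested genes. Over all tested genes, 30.5% of those called in mt+ and 23.5% of those called in mt- were called in the same direction in both, so the share in mt- was near the background. The comparisons share no library, but both come from the same fit, with a shared estimate of each gene's spread from all 8 libraries. Their calls are thus not fully independent. Across the 67 genes the fold changes of the 2 comparisons had a Pearson r of 0.46 (Spearman rho 0.39) and the same sign in 49; across all 15263 tested genes r was 0.34, with the same sign in 8734. These are correlations across genes, which are not independent replicates, and the members share their library's organelle total.

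The clearest of the 5 was CreCp.g802329, the member with the most counts per library in WT. It took 7.96% and 8.85% of chloroplast counts in WT mt+ and 9.39% and 8.47% in WT mt-. In the libraries labelled dnmt1 it took 3.57% and 3.83% in mt+ and 4.08% and 4.64% in mt-, below every WT library. Its log2 fold change within the organelle was -1.18 ± 0.12 in mt+ (edgeR BH-adjusted p = 4.00e-06) and -1.04 ± 0.12 in mt- (adjusted p = 1.69e-05). Against the whole library it fell from 54.4 and 34.9 CPM to 20.0 and 16.9 CPM in mt+, and from 49.5 and 55.4 CPM to 16.5 and 14.3 CPM in mt-.

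CreCp.g802307 was lower in both mating types too. It took 2.53% and 2.24% of chloroplast counts in WT mt+ and 1.03% and 0.897% in dnmt1 mt+. In mt- it took 3.12% and 2.99% in WT and 1.22% and 0.994% in dnmt1. The WT and dnmt1 libraries did not overlap in either mating type, with log2 fold changes of -1.30 ± 0.18 (edgeR BH-adjusted p = 1.03e-04) and -1.45 ± 0.18 (adjusted p = 4.29e-05). The calls of CreCp.g802329 and CreCp.g802307 within the organelle held under all 14 alternatives in both mating types.

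CreCp.g802308, next to CreCp.g802307 by ID number, took 1.55% and 1.73% in WT mt+ against 0.792% and 0.775% in dnmt1 mt+, and 2.15% and 2.20% in WT mt- against 1.14% and 0.420% in dnmt1 mt-. All 4 dnmt1 libraries were below all 4 WT libraries, while the 2 dnmt1 mt- replicates stood apart from each other. Its log2 fold changes were -1.06 ± 0.28 in mt+ (edgeR BH-adjusted p = 0.0146) and -1.41 ± 0.28 in mt- (adjusted p = 0.00200). The call in mt+ was lost without either dnmt1 mt+ library (adjusted p = 0.111 and 0.101).

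CreCp.g802332 took 1.14% and 1.94% in WT mt+ against 0.781% and 0.638% in dnmt1 mt+, and 1.38% and 1.34% in WT mt- against 0.831% and 0.530% in dnmt1 mt-. It too was lower in every dnmt1 library than in every WT library, with log2 fold changes of -1.09 ± 0.28 and -0.96 ± 0.29 (edgeR BH-adjusted p = 0.0116 and 0.0238). The call in mt+ was lost without WT mt+ replicate 2 or either dnmt1 mt+ library (adjusted p = 0.0597 to 0.111). That in mt- was lost without either WT mt- library or dnmt1 mt- replicate 2 (adjusted p = 0.0865 to 0.195).

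CreCp.g802328, next to CreCp.g802329 by ID number, fell by less. It took 3.44% and 3.57% in WT mt+ against 2.61% and 2.45% in dnmt1 mt+, and 3.29% and 3.80% in WT mt- against 2.40% and 2.52% in dnmt1 mt-. The log2 fold changes were -0.47 ± 0.14 and -0.53 ± 0.14 (edgeR BH-adjusted p = 0.0286 and 0.0141). Its replicates agreed closely in share, yet the call in mt+ was lost without either dnmt1 mt+ library and with DESeq2 (DESeq2 adjusted p = 0.0687). That in mt- was lost without WT mt- replicate 2 or either dnmt1 mt- library. Against the whole library it was called lower in mt- but not called in mt+, with 18.8 ± 6.66 CPM in WT mt+ and 12.7 ± 2.67 CPM in dnmt1 mt+ (mean ± SD, n = 2).

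The gene that rose in both mating types was CreCp.g802318. It took 1.11% and 1.67% in WT mt+ against 2.47% and 2.54% in dnmt1 mt+, and 1.16% and 1.23% in WT mt- against 1.87% and 2.16% in dnmt1 mt-, so that every dnmt1 library was above every WT library. Its log2 fold changes were 0.86 ± 0.20 and 0.75 ± 0.21 (edgeR BH-adjusted p = 0.00673 and 0.0153). The call was lost without either dnmt1 library in mt+ (adjusted p = 0.0556 and 0.0562) and without any 1 of the 4 libraries in mt- (adjusted p = 0.0525 to 0.116). Against the whole library it rose in mt+ alone (0.83 ± 0.20), and its value in mt- was 0.03 ± 0.20. The test of the difference between the mating types called none of these 6 genes with either scaling (edgeR BH-adjusted p = 0.632 to 0.885 within the organelle).

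**Figure D3:**
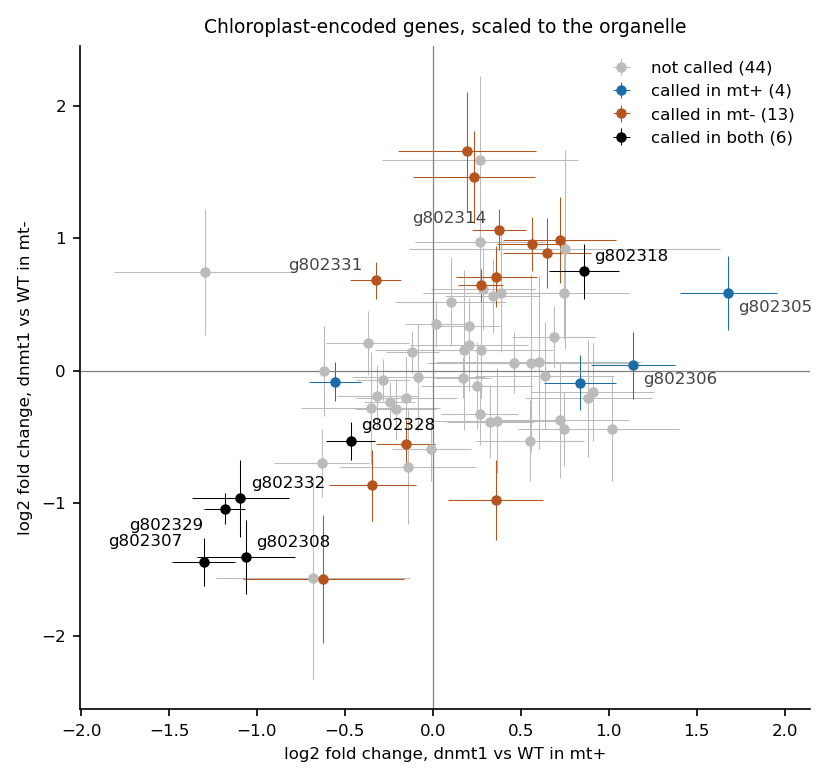
Log2 fold change, dnmt1 against WT, of the 67 tested chloroplast-encoded genes in mt+ (horizontal) and mt- (vertical), relative to the summed chloroplast counts, with the standard error of each as bars. Black points (6 genes) were called in both, blue (4) in mt+ alone, orange (13) in mt- alone and grey (44) in neither. Named genes in black lie in the lower left, except CreCp.g802318 in the upper right.

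In mt+ the largest rise within the organelle was of CreCp.g802305. It took 0.360% and 0.419% of chloroplast counts in WT mt+ and 1.23% and 1.26% in dnmt1 mt+, against 0.471% and 0.546% in WT mt- and 0.658% and 0.883% in dnmt1 mt-. The dnmt1 mt+ libraries were the highest of all 8, with a log2 fold change of 1.68 ± 0.28 (edgeR BH-adjusted p = 4.77e-04); in mt- it was 0.58 ± 0.28 and not called (adjusted p = 0.143).

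CreCp.g802306, the next by ID number, took 1.50% and 1.88% in WT mt+ against 3.82% and 3.59% in dnmt1 mt+. In mt- the libraries overlapped, at 1.93% and 1.51% in WT and 1.19% and 2.47% in dnmt1. Its log2 fold changes were 1.14 ± 0.24 (edgeR BH-adjusted p = 0.00332) and 0.04 ± 0.25 (adjusted p = 0.930). With whole-library scaling it was the 1 of 67 chloroplast-encoded genes called in opposite directions, where 389 of all 15263 tested genes were. It was higher in mt+ (1.09 ± 0.22, edgeR BH-adjusted p = 0.00228) and lower in mt- (-0.70 ± 0.23, adjusted p = 0.0379). The former call was lost without dnmt1 mt+ replicate 1 (adjusted p = 0.0559) and the latter without either WT mt- library or dnmt1 mt- replicate 1 (adjusted p = 0.120 to 0.331). Consecutive ID numbers from CreCp.g802305 to CreCp.g802308 thus held 2 members that rose and 2 that fell in mt+.

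Also in mt+, CreCp.g802274 rose from 0.869% and 0.897% to 1.67% and 1.47% of chloroplast counts (0.84 ± 0.21, edgeR BH-adjusted p = 0.00963; 0.109 without dnmt1 mt+ replicate 1 and 0.0544 with TMM among members). CreCp.g802312 fell from 4.84% and 3.92% to 2.97% and 2.99% (-0.56 ± 0.15, edgeR BH-adjusted p = 0.0146), and its call was lost without WT mt+ replicate 1 or either dnmt1 mt+ library. Neither gene was called in mt+ against the whole library.

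In mt- the smallest p among genes that rose within the organelle was that of CreCp.g802314. It took 1.88% and 2.00% of chloroplast counts in WT mt- and 4.33% and 3.75% in dnmt1 mt-, against 2.40% and 2.39% in WT mt+ and 2.80% and 3.45% in dnmt1 mt+. The log2 fold change in mt- was 1.06 ± 0.15 (edgeR BH-adjusted p = 1.64e-04), and that in mt+ 0.38 ± 0.15 (adjusted p = 0.107). In CPM its libraries overlapped in mt-, at 9.93 and 13.1 in WT and 17.5 and 11.6 in dnmt1, and it was not called against the whole library (0.36 ± 0.23, adjusted p = 0.298).

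CreCp.g802331 and CreCp.g802282 likewise rose within the organelle with no call against the whole library. CreCp.g802331 took 3.82% and 3.63% in WT mt- against 6.24% and 5.70% in dnmt1 mt- (0.68 ± 0.14, edgeR BH-adjusted p = 0.00235). In CPM it had 20.1 and 23.7 in WT mt- and 25.3 and 17.6 in dnmt1 mt-. CreCp.g802282 took 6.24% and 4.79% in WT mt- against 8.48% and 8.81% in dnmt1 mt- (0.64 ± 0.12, adjusted p = 0.00154), with 32.9 and 31.3 CPM against 34.4 and 27.2 CPM. Their whole-library log2 fold changes were -0.02 ± 0.18 and -0.06 ± 0.18, where the median member had -0.74. CreCp.g802310 rose from 0.992% and 1.33% to 2.24% and 2.23% (0.95 ± 0.20, adjusted p = 0.00312), which was lost without WT mt- replicate 1 (adjusted p = 0.0640).

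**Figure D4:**
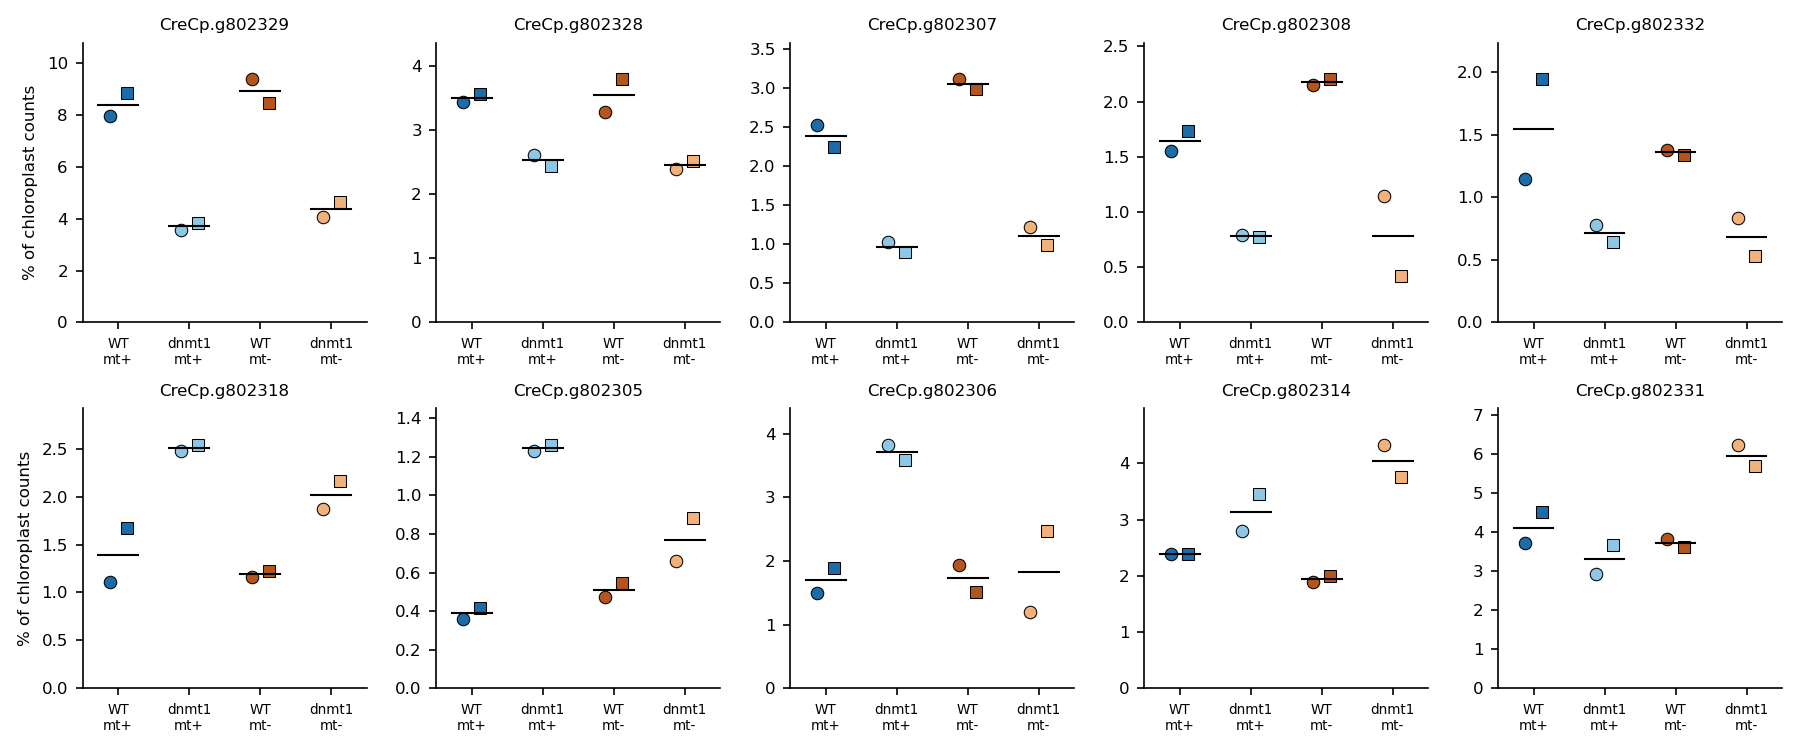
Share of chloroplast counts (%) of 10 chloroplast-encoded genes in each library; circles are replicate 1, squares replicate 2 and bars the mean of 2. The upper row holds the 5 genes lower in both mating types in the libraries labelled dnmt1, for example CreCp.g802329 at 7.96% to 9.39% in WT and 3.57% to 4.64% in dnmt1. The lower row holds CreCp.g802318, higher in both, and 4 genes called in 1 mating type.

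The 12 chloroplast-encoded genes with the highest mean CPM held 5 that were called in no comparison within the organelle. CreCp.g802291 had 30.0 and 39.3 CPM in WT mt- against 17.9 and 21.1 CPM in dnmt1 mt-, a log2 fold change of -0.82 ± 0.20 against the whole library (edgeR BH-adjusted p = 0.00830) and of -0.07 ± 0.16 within the organelle. CreCp.g802267 (26.8 and 28.3 against 17.4 and 11.4 CPM) and CreCp.g802297 (30.6 and 29.9 against 25.0 and 21.6 CPM) were also lower in mt- against the whole library alone (-0.93 ± 0.28 and -0.37 ± 0.12). CreCp.g802297 was besides lower in WT mt+ than in WT mt- (-0.43 ± 0.12). These calls were lost without 1 or more of the libraries compared. CreCp.g802263 and CreCp.g802299 were called with neither scaling, at -0.58 ± 0.31 and -0.39 ± 0.29 in mt- against the whole library.

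Whether the effect of genotype differed between the mating types was tested as the difference of the log2 fold changes, mt+ minus mt-. Against the whole library 10 chloroplast-encoded genes had a higher value in mt+ and 0 a lower one, where 6.81% and 7.00% of all tested genes were called; the median difference was 0.68. Within the organelle the median was 0.06, with 4 higher and 2 lower (6.81% and 7.06% of all tested genes). TMM among members gave 0 higher and 5 lower. CreCp.g802331, which was not called in mt+ (-0.32 ± 0.14, edgeR BH-adjusted p = 0.139) and rose in mt-, had a difference of -1.01 ± 0.20 (adjusted p = 0.00304), a call that held under all 14 alternatives. The other 5 (CreCp.g802271, CreCp.g802274, CreCp.g802306, CreCp.g802314 and CreCp.g802324) had adjusted p from 0.0388 to 0.0470 and were each lost under several alternatives.

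Between the mating types of WT few chloroplast-encoded genes were called. Against the whole library 0 were higher and 3 lower in mt+ than in mt-, where 10.6% and 10.9% of all tested genes were called, with a median log2 fold change of -0.01. Leaving out WT mt+ replicate 1 gave 0 higher and 17 lower, leaving out replicate 2 gave 12 and 2, and without WT mt- replicate 2 none was called (4 at an unadjusted p under 0.05 in edgeR; DESeq2 called 3 with all libraries). Within the organelle CreCp.g802316 was higher (1.53 ± 0.44) and CreCp.g802313 lower (-0.53 ± 0.15) in mt+ (edgeR BH-adjusted p = 0.0201 and 0.0218), beside 10.7% and 11.0% of all tested genes. CreCp.g802316 took 0.720% and 0.448% of chloroplast counts in WT mt+ and 0.210% and 0.196% in WT mt-, and CreCp.g802313 took 3.70% and 4.01% against 5.66% and 5.45%. The replicates did not overlap, but both calls were lost without either WT mt- library, that of CreCp.g802316 also without WT mt+ replicate 1 (adjusted p = 0.0825 to 0.139).

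Among the libraries labelled dnmt1, 16 chloroplast-encoded genes were higher and 0 lower in mt+ than in mt- against the whole library, with 10.7% and 11.4% of all tested genes called and a median of 0.63. The count was 3 without dnmt1 mt+ replicate 1 or without dnmt1 mt- replicate 2. Within the organelle the median was 0.13, with 6 higher and 2 lower (10.6% and 11.5% of all tested genes), and TMM among members gave 2 higher and 9 lower. CreCp.g802331 was lower in mt+ (2.93% and 3.68% of chloroplast counts against 6.24% and 5.70%, -0.87 ± 0.14, edgeR BH-adjusted p = 5.29e-04), and this call held under all 14 alternatives. CreCp.g802306 was higher (1.06 ± 0.25, adjusted p = 0.00619; 0.0659 and 0.129 without dnmt1 mt+ or mt- replicate 1), as was CreCp.g802279 (0.835% and 0.699% against 0.157% and 0.375%, 1.60 ± 0.41, adjusted p = 0.0110; 0.0985 and 0.178 without the same libraries). This comparison and those of genotype share their dnmt1 libraries.

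In the mitochondrion, the 8 genes were measured with few counts, from 0 to 158 in a library. In mt-, dnmt1 against WT gave 2 higher and 0 lower genes with whole-library scaling (11.9% and 11.6% of all tested genes were called), with a median log2 fold change of 0.76 and 7 of 8 above 0. Within the organelle the median was 0.21, with 1 higher and 1 lower (12.1% and 11.6% of all tested genes). In mt+ none was called with either scaling (1 of 8 at an unadjusted p under 0.05 in edgeR with each, and 0 called by DESeq2), with medians of -0.01 and 0.12.

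The 2 genes higher in mt- were consecutive by ID number. CreMt.g802343 had 0.621 and 0.539 CPM in WT mt- against 2.42 and 1.63 CPM in dnmt1 mt-, against 1.53 and 1.30 in WT mt+ and 1.67 and 2.01 in dnmt1 mt+. WT mt- was the lowest of the 4 groups, and the log2 fold change in mt- was 1.78 ± 0.44 (edgeR BH-adjusted p = 0.00803). The call was lost without either WT mt- library or dnmt1 mt- replicate 1 (adjusted p = 0.0596 to 0.107), and within the organelle (1.20 ± 0.43, adjusted p = 0.0550).

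CreMt.g802344 had 2 and 0 counts in WT mt- against 22 and 20 in dnmt1 mt-, 10 and 6 in WT mt+ against 24 and 12 in dnmt1 mt+. Only WT mt- was near 0. The ratio of dnmt1 mt- to WT mt-, from 42 counts against 2 and scaled library sizes, was 25.8 with an exact 95% interval of 6.71 to 220.1 (4.15 to 1067 with counts halved, as for pairs counted per mate), for counting error only. It was called in mt- with both scalings (edgeR BH-adjusted p = 0.00137 and 0.00349), under every alternative that gave it a value. Between the WT strains it was higher in mt+ (edgeR BH-adjusted p = 0.0303), the 1 of 8 called there, where 10.6% of all tested genes were called higher. That call was lost without any 1 of WT mt+ replicate 1 and the 4 mt- libraries.

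The member with the most mitochondrial counts, CreMt.g802340, took 33.9% and 36.5% of them in WT mt- against 24.6% and 21.8% in dnmt1 mt-, 22.1% and 27.3% in WT mt+ against 29.4% and 24.4% in dnmt1 mt+. WT mt- stood above the other groups, and the log2 fold change within the organelle in mt- was -0.59 ± 0.19 (edgeR BH-adjusted p = 0.0316; 0.0975 to 0.170 without any 1 of the mt- libraries, and 0.0644 with DESeq2). Its level in CPM overlapped in every comparison of 2 groups, from 6.26 to 9.79 over the 8 libraries.

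CreMt.g802338 had 5.18 and 3.78 CPM in WT mt+ against 2.81 and 2.95 in dnmt1 mt+, and 1.86 and 3.10 in WT mt- against 5.72 and 3.40 in dnmt1 mt-. The libraries labelled dnmt1 were lower in mt+ and higher in mt-, values that were not called alone, and the difference was -1.54 ± 0.46 (edgeR BH-adjusted p = 0.0383; 0.119 to 0.239 without WT mt- or dnmt1 mt- replicate 1 or either dnmt1 mt+ library). It was the 1 of 8 called for the difference, where 7.00% of all tested genes were called lower. Within the organelle it was not called (edgeR BH-adjusted p = 0.148). CreMt.g802342 had 2.21 and 2.01 CPM in WT mt+, above all 6 other libraries (0.717 to 1.40), with no call in mt+ (adjusted p = 0.0769). CreMt.g802337, CreMt.g802339 and CreMt.g802341 were called in no comparison. Between the mating types of the libraries labelled dnmt1 none of the 8 was called by edgeR or DESeq2, and none had an unadjusted p under 0.05 in edgeR with either scaling.

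**Figure D5:**
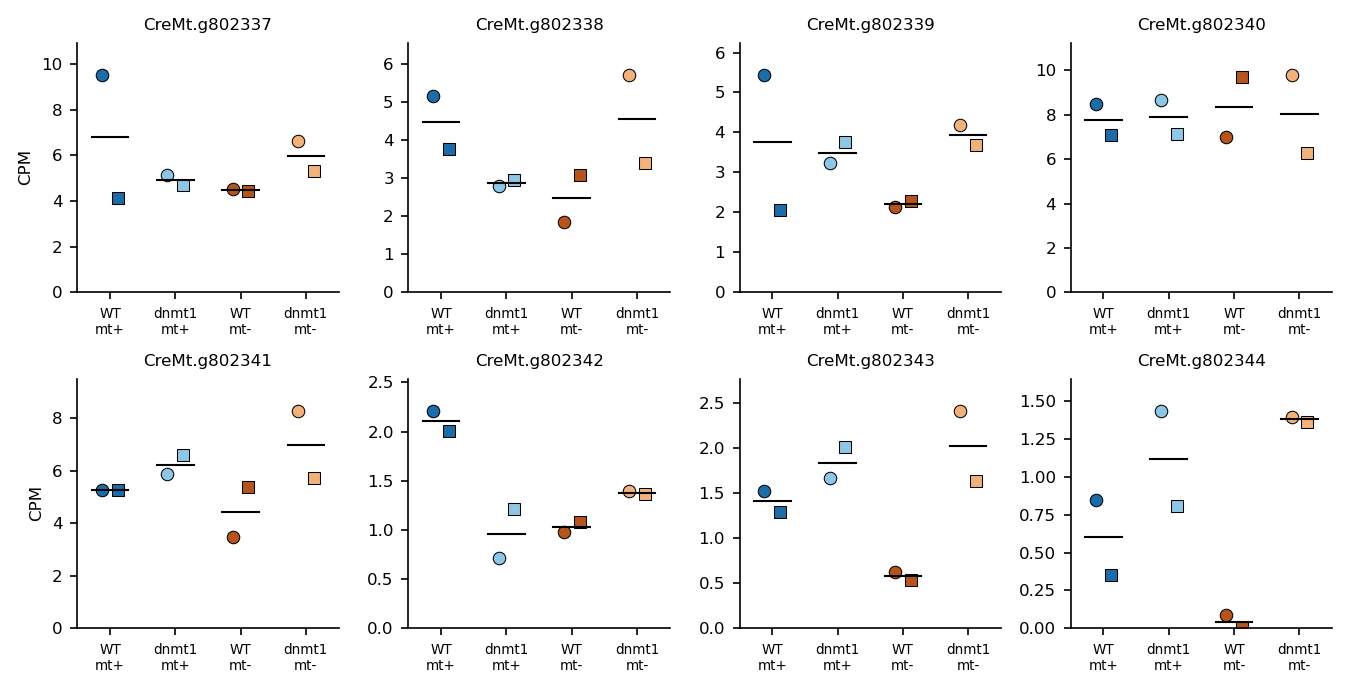
Level (CPM) of the 8 mitochondrion-encoded genes in each library; circles are replicate 1, squares replicate 2 and bars the mean of 2. CreMt.g802343 (0.621 and 0.539 CPM) and CreMt.g802344 (0.0887 and 0 CPM) were lowest in WT mt-.

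The 7 chloroplast-encoded genes that were not tested had 7 to 36 counts over all 8 libraries. CreCp.g802321, singled out after its values were seen, had 4, 3, 2 and 4 counts in the WT libraries and 0 in all 4 libraries labelled dnmt1. At such counts no fold change is given. The tested member with the lowest level had a mean of 0.401 CPM, and the untested one with the highest 0.301 CPM.

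Nuclear genes for partner subunits of the same complexes were counted beside the organelle genes. The first list held 22 loci of photosystem, cytochrome b6f, ATP synthase and Rubisco subunits, paired with symbols from the nomenclature and not from the files. In mt- 10 of 22 rose and 0 fell in the libraries labelled dnmt1, where 11.9% and 11.6% of all tested genes were called, with a median log2 fold change of 0.22 against 0.01 over all tested genes. The largest rises were of PETC (Cre11.g467689), the Rieske protein of the cytochrome b6f complex (0.46 ± 0.09), and PSBX (Cre02.g082750), a small photosystem II subunit (0.42 ± 0.09). Apart from PETC, all that rose were photosystem subunits. The ATP synthase loci ATPC, ATPD and ATPG (-0.06, -0.02 and -0.06) and the Rubisco loci RBCS1 and RBCS2 (0.15 and 0.03) were not called. In mt+ 1 rose, PSBX (0.34 ± 0.09), and 0 fell, with a median of 0.02 (9.27% and 8.83% of all tested genes). For the difference 1 was called, with a lower value in mt+ (7.00% of all tested genes). Between the mating types of WT 10 had higher levels in mt+ and 0 lower ones, beside 10.6% and 10.9% of all tested genes. Between those of dnmt1 2 had higher and 1 a lower level, near the 10.7% and 11.4% of all tested genes. The comparison in WT and that of genotype in mt- share the WT mt- libraries, so their counts are not separate results. Of 5 loci for nuclear-encoded subunits of the mitochondrial respiratory chain, 0 were called in mt- (median 0.10) and 1 fell in mt+, CYC1 (Cre15.g638500) for cytochrome c1 (-0.24 ± 0.07); for the difference and between the mating types of WT 0 were called, and between those of dnmt1 1 was lower in mt+.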

How the data were processed

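RNA-seq libraries of vegetative cells were compared between 4 groups of 2 replicates, taken from the sample titles. The deposited table holds the authors' raw counts per gene; STAR 2.7.6, featureCounts, Picard, DESeq2 and Trim Galore 2.6 are named in the submitters' processing notes without role or order, and the handling of reads with several hits is not given in the sources used here. Gene IDs carry an annotation suffix, left off here. A deposited table of normalized values was not used. In edgeR 4.0.16 (R 4.3.3), genes were kept by filterByExpr on the 4 groups (15263 of 17693), scaled by TMM and fitted with 1 mean per group (4 residual degrees of freedom); each contrast was put to the 2-sided quasi-likelihood test (glmQLFTest), and p-values were adjusted by Benjamini-Hochberg across the tested table. In the second fit the offset of an organelle gene was the log of its organelle's summed counts. Standard errors are the log2 fold change divided by the square root of F. Shares were tested by exact permutation with Python 3.11.15. p-values measure the spread between replicates whose separate origin is known only from the titles. Named genes were the 8 mitochondrion-encoded ones, the 12 chloroplast-encoded ones with the highest mean CPM, and up to 4 called each way per contrast with the smallest p within the organelle. Members, lists and tests were chosen with earlier results of these data known. Of counts above 0, 0% to 25.0% per library were odd numbers in the mitochondrion. The values were 28.4% to 51.4% in the chloroplast and 40.4% to 44.6% in nuclear genes, and the cause of the difference was not tested. Alternatives were other scalings, DESeq2 1.42.0, no low-count filter, fewer groups, a replicate block, halved counts and leaving out each library. Scripts were tested on simulated data.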

Additional observations from a re-analysis of the deposited data

Results flagged for a closer look

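The test of the difference of genotype effects itself called 17 values over both scalings (edgeR, adjusted p under 0.05, mt+ minus mt-, log2), with 4 genes called in both. Of all tested genes, 6.81% were called higher and 7.06% lower in the fit with organelle scaling. Against the whole library 6.81% and 7.00% were. Within the organelle the differences were -1.01 for CreCp.g802331, 1.33 for CreCp.g802271, 0.93 for CreCp.g802274, 1.10 for CreCp.g802306, -0.69 for CreCp.g802314 and 1.19 for CreCp.g802324. The share of CreCp.g802271 among chloroplast counts was 1.03% and 1.61% for WT mt+, 1.65% and 1.72% for dnmt1 mt+, 1.46% and 1.55% for WT mt-, then 0.486% and 1.10% for dnmt1 mt-. CreCp.g802324 took 0.832% and 1.26%, 1.82% and 1.64%, 1.14% and 1.34%, and 1.14% and 0.618% in the same order.

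Against the whole library the differences were 2.05 for CreCp.g802271, 1.79 for CreCp.g802306, 1.82 for CreCp.g802317, 1.58 for CreCp.g802274, 1.86 for CreCp.g802324, 1.77 for CreCp.g802305, 2.13 for CreCp.g802275, 1.24 for CreCp.g802336, 1.80 for CreCp.g802279 and 0.84 for CreCp.g802313. For CreMt.g802338 the difference was -1.54. Out of 15 alternatives the call was lost in 7 for CreCp.g802279 (DESeq2 among them), 5 for CreCp.g802313, 4 for CreMt.g802338, 3 for CreCp.g802324, 2 for CreCp.g802274 and 2 for CreCp.g802305, and in 0 for CreCp.g802271 and CreCp.g802306; alternatives for CreCp.g802317, CreCp.g802275 and CreCp.g802336 were not run one by one. Of the 10 chloroplast-encoded genes called there, 4 were also called within the organelle.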

How the results depend on the processing

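Among the chloroplast-encoded genes, the count called for the difference of genotype effects was 3 with DESeq2 (6 in edgeR) within the organelle, and 16 with library size alone (10 with TMM) against the whole library. For mating type in WT the whole-library count was 1 with the 2 compared groups alone, 5 with no low-count filter and 5 with the replicate block, against 3; for mating type in dnmt1 it was 30 with the 2 groups alone, against 16. Without the most abundant member the log2 difference of the chloroplast share in mt+ was 0.0018, against -0.07. Of the mitochondrion-encoded genes, 1 was called for the difference and 1 for mating type in WT within the organelle with TMM among members and with the total taken without the most abundant member (against 0 and 0). In mt- DESeq2 called 1 within the organelle (2 in edgeR), and against the whole library 5 were called with the 2 groups alone, 4 with counts halved, 4 with no filter and 3 with the replicate block (against 2). For mating type in WT 0 were called with the 2 groups alone and with DESeq2 (against 1). In both settings CreMt.g802344, the gene otherwise called, had no adjusted p and so could not be called. The causes of the other changes were not tested. The share of all tested genes called was not taken for these settings or for the fits that leave out 1 library. Their counts thus cannot tell a change among the organelle genes from one over the whole table.

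Leaving out 1 library at a time, the number of chloroplast-encoded genes called ranged, against the whole library, from 4 to 25 for genotype in mt+, 11 to 33 in mt-, 3 to 42 for the difference, 0 to 17 for mating type in WT and 3 to 31 in dnmt1. Within the organelle it ranged from 4 to 17, 7 to 23, 1 to 11, 0 to 9 and 1 to 16 in the same order. For the mitochondrion-encoded genes it ranged, against the whole library, from 0 to 1 in mt+, 1 to 5 in mt-, 0 to 4 for the difference and 0 to 4 for mating type in WT, and within the organelle from 1 to 3 in mt-, 0 to 1 for the difference and 0 to 2 for mating type in WT. The log2 difference of the chloroplast share ranged from -0.42 to 0.28 in mt+ and from -1.03 to -0.62 in mt-, that of the mitochondrial share from -0.35 to 0.12 in mt+ and from 0.19 to 0.67 in mt-, and that of the ratio from -0.12 to 0.20 in mt+ and from -1.30 to -1.22 in mt-.

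Replicate numbers were not shown to pair the libraries: deviations of same-numbered libraries correlated between -0.07 and 0.17 over all tested genes and between -0.17 and 0.23 over the 75 organelle genes tested. With the replicate block 2 mitochondrion-encoded genes were called for the difference against 1. Chloroplast-encoded genes called against the whole library were 9 in mt+ against 7, 27 in mt- against 26, 13 for the difference against 10 and 18 for mating type in dnmt1 against 16; within the organelle they were 12 in mt+ against 10 and 20 in mt- against 19, with the other 3 counts unmoved. With 2 libraries a group no share test can pass 0.05, and the mitochondrial genes rest on 394 to 626 counts a library.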

Other observations

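Members with neighbouring ID numbers had weakly similar fold changes within the organelle. Over 61 pairs of tested chloroplast-encoded genes with consecutive numbers, Pearson's r of the log2 fold changes was 0.24 for genotype in mt-, 0.11 for genotype in mt+ and -0.10 for mating type in WT. These are correlations across genes of the same libraries, and that ID order follows the order on the chloroplast genome was not tested.

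The 12 chloroplast-encoded genes with the most counts in a library took 54.3% to 58.0% of chloroplast counts in the 4 WT libraries, 47.5% and 50.2% in those of dnmt1 mt+ but 56.5% and 59.4% in those of dnmt1 mt-. The dnmt1 mt+ libraries had the lowest values of the 8.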
